A study of Arabidopsis thaliana with 9 samples.

Results

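The 71 genes described here lie in the gene-poor, transposon-rich DNA around the centromeres of Arabidopsis thaliana chromosomes 2 and 4. They are the loci AT2G07900 to AT2G13500 and AT4G05300 to AT4G08100, by identifier number, that were above 0 TPM in at least 1 wild-type library and reached 0.5 TPM in any of the 9 libraries. TPM is a transcript level scaled by gene length and library total. The members were thus chosen by measured TPM values of these same libraries. The expression table holds 27655 genes, of which 180 fall in these identifier ranges, 101 on chromosome 2 and 79 on chromosome 4. The 71 that met the conditions are 33 genes of chromosome 2 and 38 of chromosome 4. Among the other loci of the ranges, 37 were at 0 in every library, and 46 were at 0 in wild type and detected in a mutant, but under 0.5 TPM. A further 8 were detected in wild type but stayed under 0.5 TPM, and 18 were at 0 in wild type but reached 0.5 TPM in a mutant.

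RNA was sequenced from leaves of 3-week-old plants, with 3 libraries per genotype. Plants grew in long days (16 h light, 8 h dark) at 22 °C. The genotype atxr5;atxr5;atxr6hyp;atxr6hyp, called hyp/hyp here, is labelled as homozygous for an atxr5 allele and for the atxr6hyp allele. The genotype atxr5;atxr5;atxr6hyp;atxr6c-1, called hyp/c-1, has the same atxr5 label and carries atxr6hyp over atxr6c-1. Wild type (WT) is Col. Each mutant therefore differs from WT at both genes, and no group is mutated in only 1 of them. The series asked why hyp/c-1 plants develop more abnormally than plants with atxr6hyp as the only atxr6 allele.

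ATXR5 and ATXR6 are enzymes that add a single methyl group to lysine 27 of histone H3, a mark found in heterochromatin. Pericentromeric heterochromatin is rich in transposons, carries dense DNA methylation and is transcriptionally quiet, while ordinary genes are scattered between its repeats. Loss of both enzymes is known to reactivate transposons and to cause extra replication of heterochromatic DNA.

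The DNA just upstream of 3 members is shown because these genes rose in both mutants and are the main items below. Each run is the 250 bases before the annotated start, read 5′ to 3′ on the strand of the gene, as RefSeq annotates it in the TAIR10.1 assembly. Capitals mark CTTNNNNNNNAAG, the motif known to be bound by SOG1, the master transcription factor of the plant DNA damage response.
AT4G07995, chr4:4843815-4844064, minus strand: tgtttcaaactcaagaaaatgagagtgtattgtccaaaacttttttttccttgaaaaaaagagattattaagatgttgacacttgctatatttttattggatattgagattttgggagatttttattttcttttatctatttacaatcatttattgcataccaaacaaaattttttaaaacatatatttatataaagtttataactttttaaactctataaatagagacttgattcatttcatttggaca
AT4G05380, chr4:2735859-2736108, plus strand: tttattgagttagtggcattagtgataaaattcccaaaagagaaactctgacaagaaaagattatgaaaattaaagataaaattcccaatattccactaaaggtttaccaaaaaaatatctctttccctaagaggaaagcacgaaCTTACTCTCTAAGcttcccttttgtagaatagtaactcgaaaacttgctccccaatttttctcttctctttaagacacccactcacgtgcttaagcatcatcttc
AT4G05475, chr4:2767958-2768207, minus strand: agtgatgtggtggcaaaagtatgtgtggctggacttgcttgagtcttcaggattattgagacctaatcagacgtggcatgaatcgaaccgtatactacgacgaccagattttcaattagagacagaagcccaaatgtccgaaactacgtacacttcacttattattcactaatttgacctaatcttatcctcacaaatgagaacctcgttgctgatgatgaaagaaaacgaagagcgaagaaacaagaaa
The motif reads the same on both strands and was searched for without any mismatch. Among the 3 windows only that of AT4G05380 held it. Over all members, 5 of 71 windows held it (7.04%), against 9.03% of 5083 arm genes and 9.71% of 27444 windows of the whole annotation, so the members' share was not above the background. The other windows with the motif belonged to AT2G10450, AT2G10975, AT4G05440 and AT4G06744. A match is only a run of letters and was not tested as a binding site.

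The members were embedded in repeats far more than genes elsewhere on the same chromosomes. The chromosome 2 block spans 3614986 to 5629099 (2.01 Mb) and holds 373 annotated pseudogenes, the class in which RefSeq places many transposon remnants, beside 101 protein-coding loci. The chromosome 4 block spans 2714765 to 5005932 (2.29 Mb) and holds 420 pseudogenes beside 79 protein-coding loci. A pseudogene lay within 10 kb of 87.3% of the members, against 57.6% of 743 flanking genes and 17.7% of 5083 arm genes. Flanking genes are those within 2 Mb of a block and arm genes those farther out on chromosomes 2 and 4, all under the same TPM conditions. The members were not themselves repeats in the main: 59 of 71 shared no 50-base stretch with another place in the genome, and none shared over 50% of them. Only 1 member, AT2G11035, is annotated with a transposon word (reverse transcriptase).

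By annotation, 21 members were uncharacterized, 10 belonged to the class of nucleic acid binding and chromatin proteins, 6 were enzymes and 24 had assorted other products. Their levels spanned a wide range. At the top stood UBQ10, the polyubiquitin gene often used as a constitutive reference, and AGT, the peroxisomal aminotransferase of photorespiration. At the bottom stood AT2G10450, whose highest value of 0.574 TPM was just inside the rule, while AT2G11270, with 0.476 TPM, was just outside it. The median WT level of the members was 6.80 TPM, against 12.2 TPM for arm genes. By identifier, the first and last members were AT2G09990 and AT2G13463 on chromosome 2 and UBQ10 and ACS11 on chromosome 4.

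**Figure D1:**
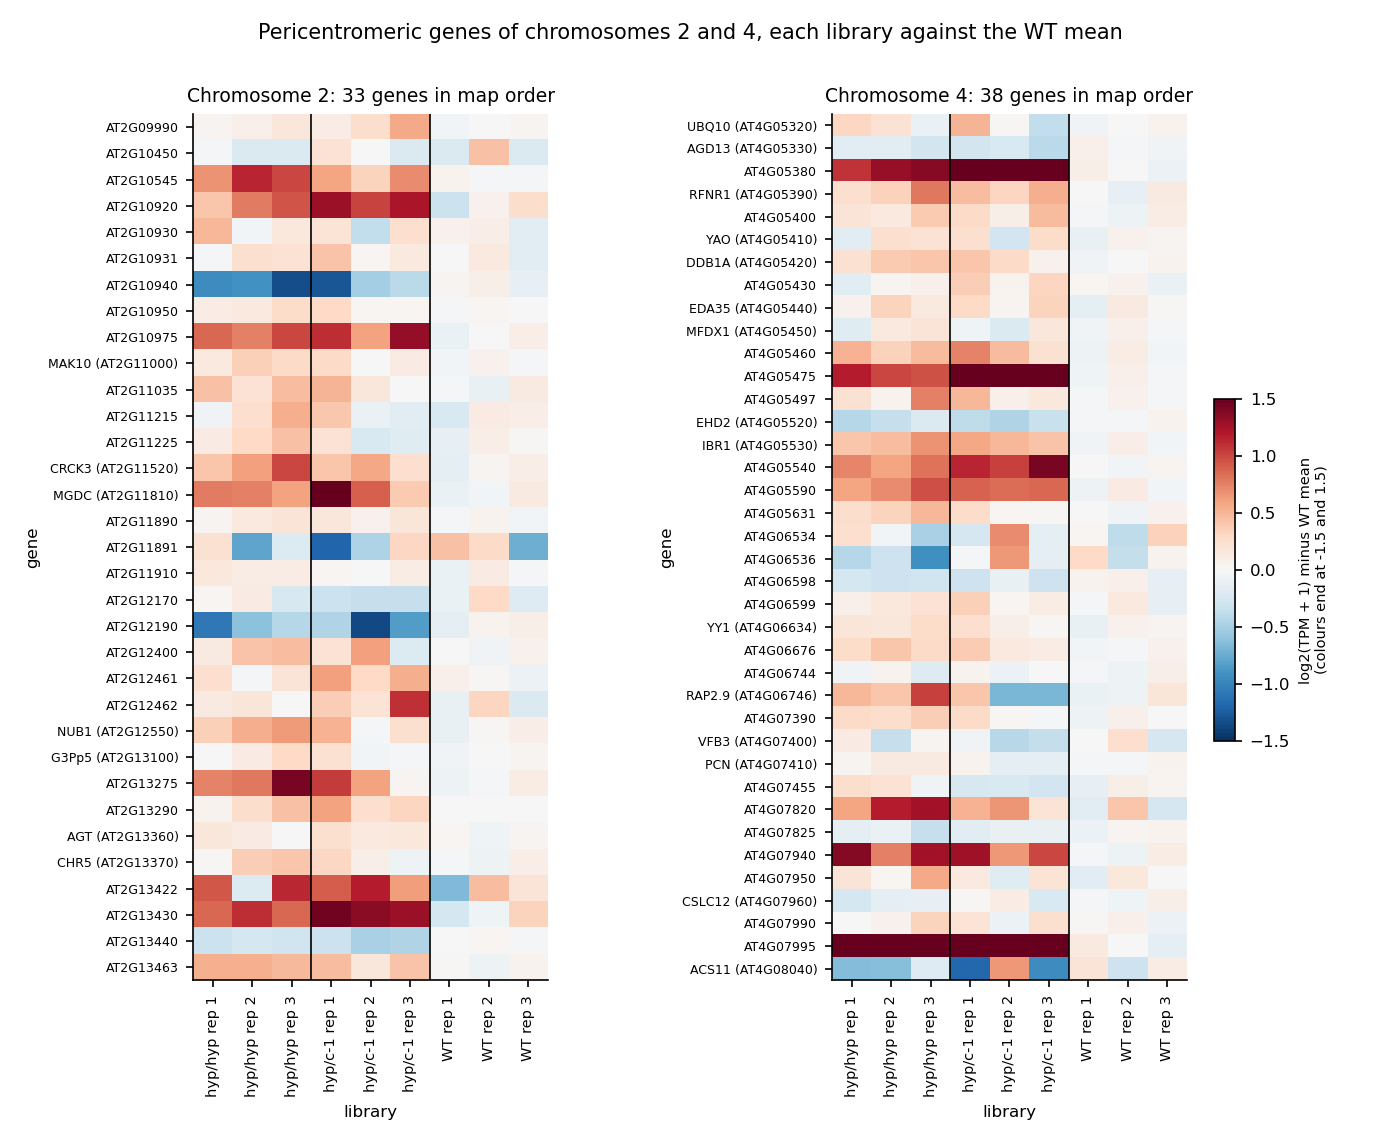
Each row is 1 of the 71 members in map order, and each column 1 library, with hyp/hyp left, hyp/c-1 in the middle and WT right. Colour gives log2(TPM + 1) minus the mean of the 3 WT libraries. Most rows are pale, and a few rows, among them AT4G05380, AT4G05475 and AT4G07995, are dark red in all 6 mutant libraries.

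A minority of members changed strongly, and the WT means of the called genes ran from 0.0456 TPM for AT4G05475 to 1270 TPM for AT2G10940. Values were compared as log2(TPM + 1) with limma over the whole table, and a call needed a Benjamini-Hochberg adjusted p under 0.05 and a log2 difference of 1 or more in either direction. With a mean of at least 1 TPM, 62 of the 71 members could be tested. In hyp/hyp against WT, 4 members rose and 1 fell, which is 8.06% of those tested, against a background of 2.87% of all 17683 genes tested (2.36% higher, 0.509% lower). In hyp/c-1 against WT, 5 members rose and none fell, again 8.06%, against a background of 3.2% (2.61% higher, 0.588% lower). Part of that excess follows from the rule, since AT4G05380 and AT4G05475 entered only through their mutant levels and had to be higher there. With the 0.5 TPM minimum applied to WT alone, 3 of 60 tested members (5%) were called in each mutant. The mean of 1 TPM needed for a test still used mutant values. AT4G07940 and AT2G10920, called in 1 mutant each, had WT means of 0.447 and 0.272 TPM and reached it only through the mutants. The background of all genes is not matched for WT level. Under a WT mean of 1 TPM, 3 of 5 tested members were called in each mutant, AT4G05380 and AT4G05475 among them. Arm genes of that level gave 17.9% for hyp/hyp and 21.1% for hyp/c-1. At 1 to 10 TPM members gave 3.7% and 7.41%, against 4.59% of arm genes for both. At 10 TPM or more members gave 3.33% and 0%, against 1.43% and 1.28%. The excess thus lay mainly in the 5 low genes. Both comparisons use the same WT libraries. In bulk tissue, more or fewer cells of a type and more or less RNA per cell cannot be told apart.

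AT4G07995 (chr4:4842688-4843814, minus strand), an uncharacterized protein gene, had the highest log2 difference of all members on the scale log2(TPM + 1). With voom on recovered reads AT4G05475 (4.66) and AT4G05380 (3.605) exceeded its 3.50 in hyp/hyp leaves. It had 11.0, 14.3 and 11.0 TPM in hyp/hyp leaves, 15.2, 13.3 and 16.1 TPM in hyp/c-1 leaves, and 1.22, 1.01 and 0.824 TPM in WT. Every mutant value was far above every WT value. The mean TPM was 11.9-fold higher in hyp/hyp leaves (log2 difference 2.69, SE 0.13, limma adjusted p = 7.75e-07) and 14.6-fold higher in hyp/c-1 leaves (2.98, limma adjusted p = 3.21e-07). The gene overlaps the locus AT4G02875, and reads of overlapping loci cannot be told apart where strand is not stated. It lies 1.31 kb from the nearest annotated pseudogene.

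AT4G05380 (chr4:2736109-2738255, plus strand) encodes a P-loop nucleoside triphosphate hydrolase, a broad class of ATP- and GTP-using proteins. It had 1.40, 1.80 and 1.91 TPM in hyp/hyp leaves, 4.69, 2.54 and 3.51 TPM in hyp/c-1 leaves, and 0.204, 0.125 and 0.0666 TPM in WT. The 3 genotypes formed separate ranges, with hyp/c-1 highest. The gene entered only through its mutant levels, so the rule fixed its direction from WT. The log2 differences from WT were 1.25 in hyp/hyp leaves (SE 0.17, limma adjusted p = 0.00122), while hyp/c-1 leaves gave 1.99 (limma adjusted p = 5.55e-05). On the scale log2(TPM + 1) such differences understate the change of a gene this low, and the means of TPM were 12.9-fold and 27.1-fold those of WT. The WT value rests on 7, 4 and 2 reads.

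AT4G05475 (chr4:2765962-2767957, minus strand) encodes a protein of the RNI-like superfamily, which is built of leucine-rich repeats. It had 1.36, 1.09 and 1.03 TPM in hyp/hyp leaves, 2.42, 2.004 and 2.88 TPM in hyp/c-1 leaves, and 0, 0.101 and 0.0358 TPM in WT. Again the genotypes did not overlap, and the WT libraries together held only 4 reads. This gene too entered only through its mutant levels, with its direction from WT fixed by the rule. The log2 differences from WT were 1.04 in hyp/hyp leaves (SE 0.13, limma adjusted p = 0.000837), while hyp/c-1 leaves gave 1.71 (limma adjusted p = 2.57e-05). From the summed reads scaled by depth, hyp/hyp was 26.2-fold above WT with a 95% exact interval of 9.86 to 98.1, and hyp/c-1 was 54.6-fold above WT with an interval of 21.1 to 202. These intervals cover counting error only. Without hyp/hyp replicate 1 its difference in hyp/hyp leaves was 0.98, just under the limit for a call.

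AT4G07940 (chr4:4792453-4794109, plus strand), annotated as a CWC22-like pre-mRNA splicing factor, was called in hyp/hyp leaves. It had 2.76, 1.44 and 2.47 TPM in hyp/hyp leaves, 2.49, 1.27 and 1.90 TPM in hyp/c-1 leaves, and 0.416, 0.365 and 0.561 TPM in WT. Neither mutant overlapped WT. The log2 difference was 1.13 in hyp/hyp leaves (limma adjusted p = 0.00388), while hyp/c-1 leaves gave 0.98 (limma adjusted p = 0.00726), the second just short of the limit of 1.

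The other pair of genes called in hyp/c-1 leaves lies on chromosome 2, and both are uncharacterized. AT2G13430 (chr2:5590052-5591422, plus strand) had 2.76, 3.47 and 2.76 TPM in hyp/hyp leaves, 4.65, 4.30 and 4.09 TPM in hyp/c-1 leaves, and 0.731, 0.982 and 1.62 TPM in WT. Its log2 differences from WT were 0.94 in hyp/hyp leaves and 1.36 in hyp/c-1 leaves (limma adjusted p = 0.00305 and 0.000331), and it overlaps the locus AT2G13431 and touches an annotated pseudogene. AT2G10920 (chr2:4301708-4302134, minus strand) had 0.669, 1.16 and 1.42 TPM in hyp/hyp leaves, 2.06, 1.53 and 1.92 TPM in hyp/c-1 leaves, and 0, 0.315 and 0.502 TPM in WT. For both genes the 3 genotypes did not overlap, with hyp/c-1 highest and WT lowest. The log2 difference of AT2G10920 was 0.71 in hyp/hyp leaves and 1.17 in hyp/c-1 leaves (limma adjusted p = 0.0244 and 0.00242). It rests on 16, 9 and 12 reads in hyp/c-1 against 0, 2 and 3 in WT, overlaps the locus AT2G10921, and fell under the 1 TPM mean needed for a test without hyp/c-1 replicate 1 or replicate 3.

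AT2G10940 (chr2:4310321-4312162, minus strand) was the 1 member called lower, and one of the most abundant transcripts of the group. It encodes a protein with the domain of lipid-transfer proteins and seed 2S albumins. It had 658, 674 and 503 TPM in hyp/hyp leaves, 518, 887 and 956 TPM in hyp/c-1 leaves, and 1301, 1348 and 1161 TPM in WT. No mutant library reached the lowest WT value. The log2 difference was -1.06 in hyp/hyp leaves (SE 0.21, limma adjusted p = 0.00711), while hyp/c-1 leaves gave -0.74 (limma adjusted p = 0.034), so that the mean level fell to 0.482 and 0.62 of WT. Without hyp/hyp replicate 3 the first was -0.93, which is no longer a call.

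**Figure D2:**
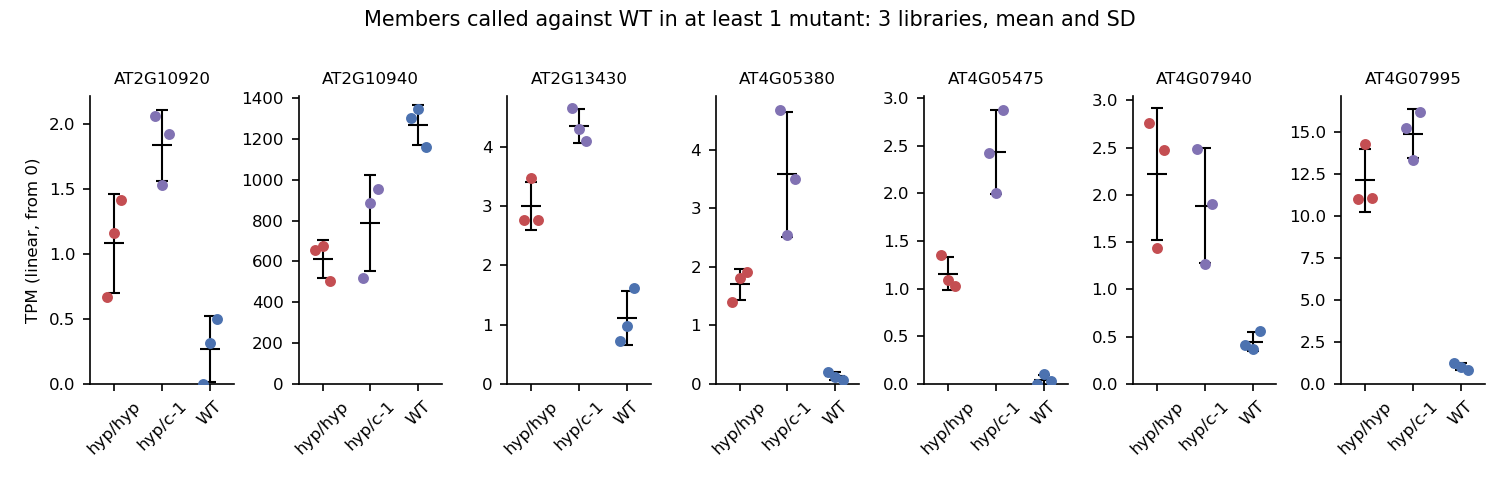
TPM of the 7 members called in at least 1 mutant against WT, on linear axes from 0, with hyp/hyp left, hyp/c-1 in the middle and WT right. Points are libraries, and bars give the mean and SD of 3. AT2G10940 is lower in both mutants than in WT, and the other 6 are higher in both.

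More members passed the adjusted p alone. At an adjusted p under 0.05 with no limit on size, limma gave 17 higher and 3 lower members in hyp/hyp leaves, together 32.3% of those tested, against a background of 20.8% (11.5% higher, 9.31% lower). In hyp/c-1 it gave 12 higher and 5 lower members, 27.4%, against a background of 20.4% (11.2% higher, 9.21% lower). In hyp/hyp 27 of 62 tested members (43.5%) had all 3 libraries above all WT libraries, where 27.5% of all genes did, and in hyp/c-1 leaves 21 members (33.9%) did, where 19.0% of all genes did. Flanking genes were near the members, with 39.0% and 29.9%, and members with 0.5 TPM in WT had 41.7% and 31.7%. Members with all 3 libraries below WT numbered 7 and 8, or 11.3% and 12.9%, where 19.9% and 19.3% of all genes did.

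Among the changes below the limit for a call were several well-known genes. AT4G05590, a pyruvate carrier-like protein of the family that brings pyruvate into mitochondria, averaged 24.3 ± 3.40 TPM in hyp/hyp leaves, 26.1 ± 0.456 TPM in hyp/c-1 leaves and 13.9 ± 1.10 TPM in WT (SD, n = 3 each). Its log2 differences were 0.76 and 0.86, with limma adjusted p = 0.0013 and 0.000497. IBR1, a peroxisomal enzyme that converts indole-3-butyric acid towards auxin, averaged 44.9 ± 4.38 TPM in hyp/hyp leaves, 44.3 ± 2.51 TPM in hyp/c-1 leaves and 31.0 ± 1.96 TPM in WT, log2 differences of 0.52 and 0.50 (limma adjusted p = 0.00431 and 0.00459). No mutant library of either gene reached down into the WT range. All 6 mutant libraries lay above WT in 15 of 62 tested members (24.2%), where 12.5% of all genes tested did. Those members include AT4G05380 and AT4G05475, whose direction the rule fixed.

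CRCK3, a calmodulin-binding receptor-like cytoplasmic kinase, averaged 33.2 ± 7.23 TPM in hyp/hyp leaves, 27.1 ± 3.18 TPM in hyp/c-1 leaves and 20.1 ± 1.73 TPM in WT. It passed in hyp/hyp leaves, with a log2 difference of 0.68 (limma adjusted p = 0.0106), while 0.41 in hyp/c-1 leaves did not (limma adjusted p = 0.0759). MGDC, which makes the galactolipid MGDG and is known to respond to phosphate starvation, averaged 6.73 ± 0.477 TPM in hyp/hyp leaves, 8.90 ± 4.42 TPM in hyp/c-1 leaves and 3.72 ± 0.409 TPM in WT. In hyp/c-1 it passed with a log2 difference of 0.98 (limma adjusted p = 0.0219), although its libraries there ranged widely, at 13.8, 7.75 and 5.17 TPM. DDB1A, an adaptor of cullin ubiquitin ligases that also binds damaged DNA, had log2 differences of 0.35 in hyp/hyp leaves and 0.26 in hyp/c-1 leaves, of which the first passed (limma adjusted p = 0.0371).

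In the class of nucleic acid binding and chromatin proteins, 9 of 10 members had a mean difference above 0 in each mutant (59.0% and 46.6% of all genes), and 3 of 9 tested in hyp/hyp leaves and 2 of 9 in hyp/c-1 leaves passed the adjusted p, where 20.8% and 20.4% of all genes did. The class includes AT4G05380 and AT4G05540, whose direction the rule fixed. AT4G05380 and AT4G07940 passed in both mutants, and DDB1A passed in hyp/hyp leaves only. The other tested members of the class did not pass in either mutant. CHR5, a chromatin remodeller of the SNF2 family, had log2 differences of 0.27 and 0.11 from WT (limma adjusted p = 0.172 and 0.626). YY1, a zinc finger transcription factor, had log2 differences of 0.21 and 0.12 (limma adjusted p = 0.136 and 0.42). The 1 member of the class below WT was the bZIP factor gene AT4G06598, with -0.29 and -0.24 (limma adjusted p = 0.0534 and 0.096).

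Among the 21 uncharacterized members, 5 of 17 tested in hyp/hyp leaves and 4 of 17 in hyp/c-1 leaves passed the adjusted p, each of them higher than WT. These counts stand against the same 20.8% and 20.4% of all genes, so the second is near the background. AT2G13275 was one of these in hyp/hyp leaves, with 29.0 ± 8.46 TPM there, 21.8 ± 7.75 TPM in hyp/c-1 leaves and 13.8 ± 1.05 TPM in WT, and log2 differences of 0.99 and 0.56 (limma adjusted p = 0.0195 and 0.139). It overlaps the locus AT2G05875. AT2G12461 passed in hyp/c-1 leaves, with 40.7 ± 4.14 TPM in hyp/hyp leaves, 51.9 ± 5.90 TPM in hyp/c-1 leaves and 36.6 ± 2.06 TPM in WT, and log2 differences of 0.14 and 0.49 (limma adjusted p = 0.36 and 0.0112). The reverse transcriptase gene AT2G11035 had 4.60 ± 0.520 TPM in hyp/hyp leaves, 4.10 ± 0.952 TPM in hyp/c-1 leaves and 3.34 ± 0.381 TPM in WT, and did not pass (limma adjusted p = 0.0955 and 0.319).

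Fewer members went down. AT2G13440, a homologue of the bacterial GidA protein that modifies transfer RNA, averaged 11.3 ± 0.216 TPM in hyp/hyp leaves, 10.3 ± 0.678 TPM in hyp/c-1 leaves and 14.1 ± 0.242 TPM in WT, with log2 differences of -0.30 and -0.42 (limma adjusted p = 0.0243 and 0.0049). EHD2, which acts in endocytosis, averaged 2.62 ± 0.275 TPM in hyp/hyp leaves, 2.47 ± 0.141 TPM in hyp/c-1 leaves and 3.54 ± 0.144 TPM in WT, with log2 differences of -0.33 and -0.39 (limma adjusted p = 0.042 and 0.0211). In both genes every mutant library was below every WT library. That was so for 6 of 62 tested members and for 11.4% of all genes tested. AT2G12190, a cytochrome P450 gene, passed in hyp/c-1 leaves at -0.88 (limma adjusted p = 0.0222). Of its 50-base stretches 24.8% occur more than once in the genome, repeats within the gene included, so its reads may be shared with other copies.

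Apart from AT2G10940, the most abundant members did not pass the test. UBQ10 had 2648, 2484 and 1998 TPM in hyp/hyp leaves, 3043, 2164 and 1663 TPM in hyp/c-1 leaves, and 2065, 2128 and 2228 TPM in WT, and the mutant libraries spread on both sides of WT. In this gene 9.71% of 50-base stretches occur more than once in the genome. Repeats within the gene are counted there too, so the share does not show whether reads come from other genes. Its log2 differences were 0.14 in hyp/hyp leaves and 0.05 in hyp/c-1 leaves (limma adjusted p = 0.629 and 0.876), and the second turned to -0.17 without hyp/c-1 replicate 1. AGT averaged 1159 ± 67.9 TPM in hyp/hyp leaves, 1224 ± 42.8 TPM in hyp/c-1 leaves and 1080 ± 42.2 TPM in WT, with log2 differences of 0.10 and 0.18 (limma adjusted p = 0.374 and 0.131). The uncharacterized neighbours AT2G11215 and AT2G11225 had log2 differences of 0.25 and 0.28 in hyp/hyp leaves and 0.05 and -0.07 in hyp/c-1 leaves. Those in hyp/c-1 leaves changed sign when single libraries were left out, to -0.13 for AT2G11215 without hyp/c-1 replicate 1 and to 0.015 for AT2G11225 without hyp/c-1 replicate 2.

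The 9 members below the mean of 1 TPM were not tested, and several of them had the same shape. AT4G05540, a second P-loop hydrolase, had 25, 14 and 27 reads in hyp/hyp leaves, 59, 38 and 65 in hyp/c-1 leaves, and 1, 0 and 2 in WT. The uncharacterized gene AT2G10975, one of those with the SOG1 motif upstream, had 16, 10 and 18 reads in hyp/hyp leaves, 28, 11 and 28 in hyp/c-1 leaves, and 2, 3 and 4 in WT. AT2G10545 had 9, 13 and 14 reads in hyp/hyp leaves, 10, 4 and 10 in hyp/c-1 leaves, and 1, 0 and 0 in WT. AT4G07820, a secreted CAP-domain protein gene, averaged 1.66 ± 0.621 TPM in hyp/hyp leaves, 0.805 ± 0.284 TPM in hyp/c-1 leaves and 0.323 ± 0.356 TPM in WT, with WT at 0.732 TPM in replicate 2. In the first 3 genes no mutant library overlapped WT, but they reached 0.5 TPM in mutants only, so the rule fixed their direction. Altogether 6 members entered in that way, the other 3 being AT2G13463, AT4G05380 and AT4G05475. Not all untested members had this shape. AT2G10450, AT2G10930 and AT4G05430 overlapped WT in both mutants. Their log2 differences were -0.15, 0.20 and -0.01 in hyp/hyp leaves and -0.0039, 0.03 and 0.25 in hyp/c-1 leaves.

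On chromosome 4, AT4G05380, AT4G05475 and AT4G05540 lie close together among genes with smaller differences from WT. A stretch of 85 kb from AT4G05380 to AT4G05540 holds 17 loci, of which 14 are members. Its ends were set at these genes by choice, and no search for clusters was made. AT4G05380 ends 275 bp from RFNR1, a ferredoxin-NADP reductase of non-green tissues, whose log2 differences were 0.46 in hyp/hyp leaves and 0.44 in hyp/c-1 leaves (limma adjusted p = 0.0422 and 0.0503). AT4G05460, a further RNI-like gene next to AT4G05475, passed in both mutants with 0.45 and 0.48 (limma adjusted p = 0.033 and 0.0248). Of the other genes between AT4G05380 and AT4G05475, DDB1A had 0.35 and 0.26 and AT4G05400, a copper ion binding protein gene, 0.24 and 0.28. YAO, a nucleolar WD40 protein needed for ribosome production, and MFDX1, a mitochondrial ferredoxin, also lie there, with log2 differences of 0.10 and 0.05 in hyp/hyp leaves and 0.08 and -0.04 in hyp/c-1 leaves. At the far end, 2 bp separate AT4G05540 from IBR1, which passed in both mutants as given above.

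**Figure D3:**
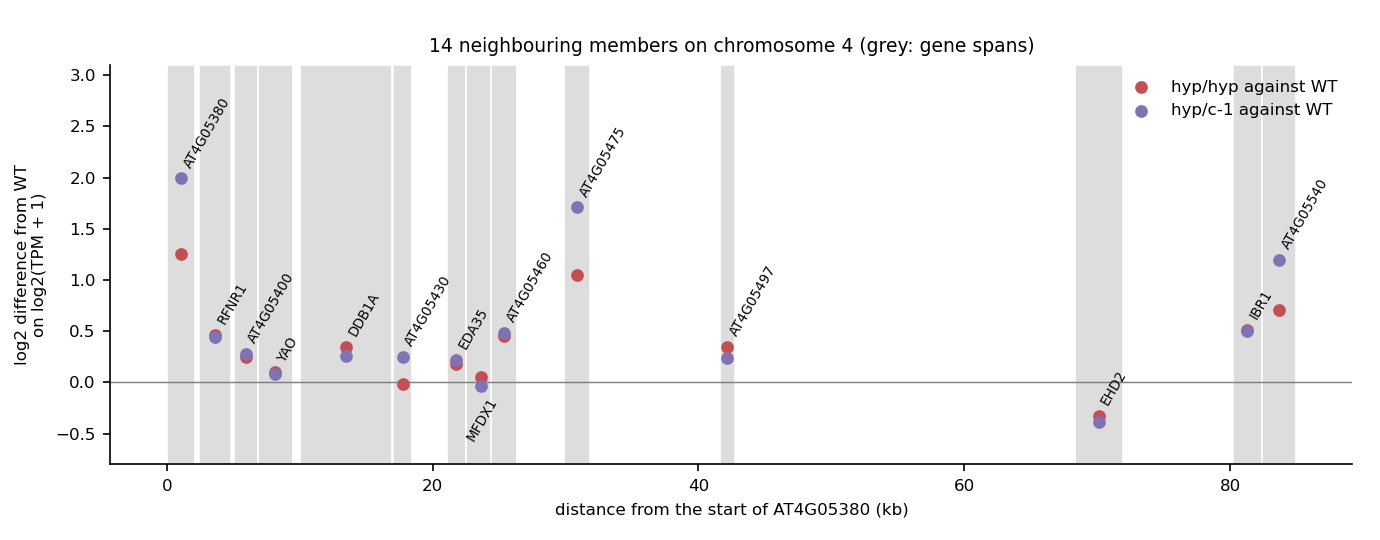
Log2 difference from WT on the scale log2(TPM + 1) for 14 neighbouring members of chromosome 4 against distance from the start of AT4G05380, with hyp/hyp and hyp/c-1 as coloured points and gene spans in grey. AT4G05380, AT4G05475 and AT4G05540 stand above their neighbours, and EHD2 is below 0.

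Taken over all 71 members the levels leaned upward in both mutants. The median log2 difference of the members was 0.21 in hyp/hyp against WT (quartiles 0.07 and 0.51) and 0.16 in hyp/c-1 against WT (quartiles -0.01 and 0.46). Over all genes tested the medians were 0.06 and -0.02, and over arm genes 0.06 and -0.01. In hyp/hyp 54 of 71 members (76.1%) had a mean difference above 0, against 59.5% of arm genes, and in hyp/c-1 leaves 52 of 71 (73.2%), against 48.5%. Flanking genes lay between, with 68.9% and 64.1%. Members with 0.5 TPM in WT, whose choice used no mutant value, had medians of 0.18 and 0.12. Both chromosomes showed the lean, with 0.25 and 0.20 for chromosome 2 members in hyp/hyp leaves and hyp/c-1, and 0.20 and 0.12 for chromosome 4 members.

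The same lean appeared in each library. The median over members of the difference from the WT mean was 0.18, 0.21 and 0.29 in the hyp/hyp libraries, 0.30, 0.08 and 0.15 in the hyp/c-1 libraries, and -0.03, 0.03 and 0.04 in the WT libraries. Each mutant library was above each WT library. Arm genes gave 0.01, 0.05 and 0.10 in hyp/hyp leaves, 0.08, -0.02 and -0.07 in hyp/c-1 leaves, and -0.02, 0.02 and -0.0019 in WT. The members minus the arms, taken within a library, gave 0.16 to 0.19 in hyp/hyp leaves, 0.10 to 0.22 in hyp/c-1 leaves and -0.02 to 0.04 in WT. No test was made of these medians, since genes are not replicates.

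Summed over all members, no such lean showed, because a few abundant genes set the sum. It was 5380 ± 384 TPM in hyp/hyp leaves, 5452 ± 610 TPM in hyp/c-1 leaves and 5508 ± 76.2 TPM in WT (SD, n = 3 each). Without the 4 genes of highest mean (UBQ10, AGT, AT2G10940 and AT2G11215) it was 1024 ± 71.1 TPM in hyp/hyp leaves, 969 ± 69.3 TPM in hyp/c-1 leaves and 844 ± 31.6 TPM in WT.

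The median of the members was above that of arm genes in each class of WT level. The 14 members with a WT mean under 1 TPM had median log2 differences of 0.71 in hyp/hyp leaves and 0.51 in hyp/c-1 leaves, against 0.17 and 0.17 for 528 arm genes of that level. Their summed level was 14.4 ± 1.95 TPM in hyp/hyp leaves, 17.6 ± 3.78 TPM in hyp/c-1 leaves and 4.18 ± 0.783 TPM in WT. The 8 of them with 0.5 TPM in WT had 0.27 and 0.25, against 0.14 and 0.10 for 336 such arm genes, and the other 6 are the genes that entered through mutant values. The 27 members at 1 to 10 TPM had 0.13 and 0.12, against 0.07 and 0.01 for arm genes. The 30 members at 10 TPM or more had 0.19 and 0.12, against 0.04 and -0.04 for arm genes. Of these 30, 26 and 22 (86.7% and 73.3%) had a difference above 0, against 55.6% and 42.8% of arm genes. In the lower classes the hyp/hyp share above 0 was near that of arm genes. It was 78.6% against 75.6% under 1 TPM and 63.0% against 61.0% at 1 to 10 TPM. In hyp/c-1 leaves these shares were 85.7% against 70.8% and 66.7% against 50.9%.

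**Figure D4:**
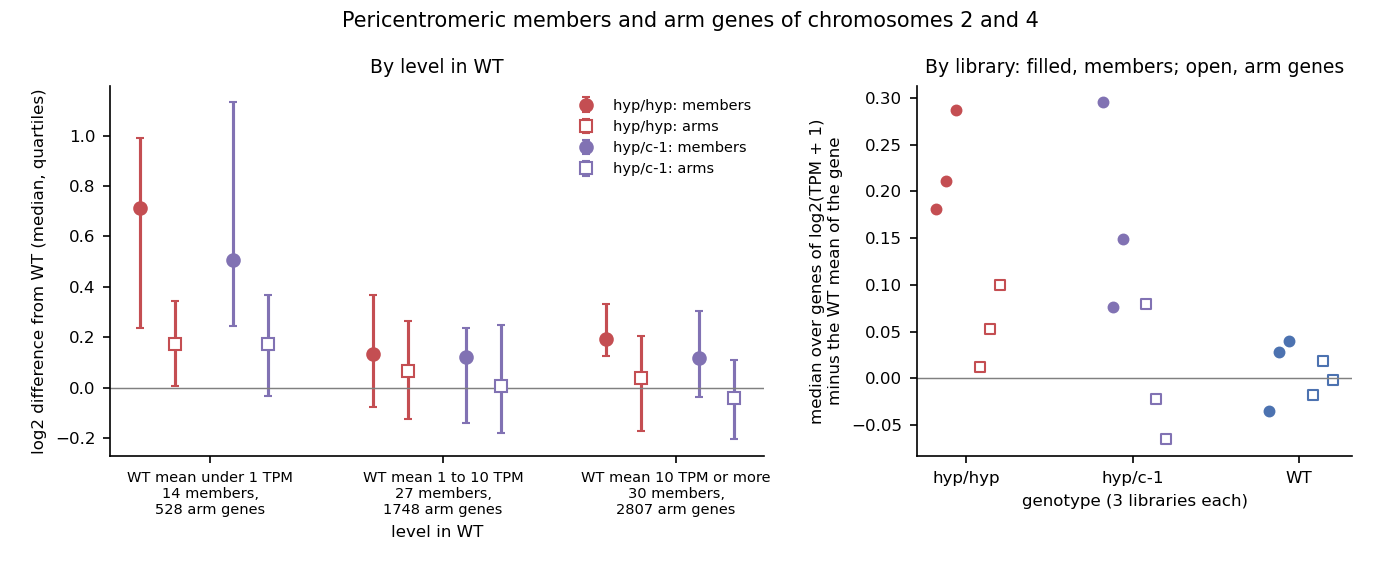
Left, median and quartiles of the log2 difference from WT for members (filled) and arm genes (open) by WT level, hyp/hyp before hyp/c-1. Right, the median over members (filled) or arm genes (open) of log2(TPM + 1) minus the WT mean in each library, where the member medians of all 6 mutant libraries, 0.08 to 0.30, lie above those of WT.

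With distance from the blocks the medians became smaller step by step. In hyp/hyp they were 0.21 for members, 0.15 for genes within 1 Mb of a block, 0.14 at 1 to 2 Mb, 0.11 at 2 to 4 Mb, 0.07 at 4 to 8 Mb and 0.05 beyond 8 Mb. In hyp/c-1 they were 0.16 for members, then 0.11, 0.09, 0.06, -0.01 and -0.03. These member medians include the genes that entered only through mutant values. Members with 0.5 TPM in WT had 0.18 and 0.12, the second close to the 0.11 within 1 Mb. The bins outside the blocks kept the TPM conditions of the full rule. The mean number of annotated pseudogenes within 10 kb also fell along these bins, with 2.92 for members, 1.79 within 1 Mb and 0.107 beyond 8 Mb. The part of repeat density in the step was not tested. Among arm genes, those with a pseudogene within 10 kb had medians of 0.07 and 0.04 and those without had 0.06 and -0.02, both under the members. Among members, the medians were 0.37 and 0.22 for 5 that touch or overlap an annotated pseudogene, 0.15 and 0.12 for 57 with one within 10 kb, and 0.24 and 0.26 for 9 without.

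**Figure D5:**
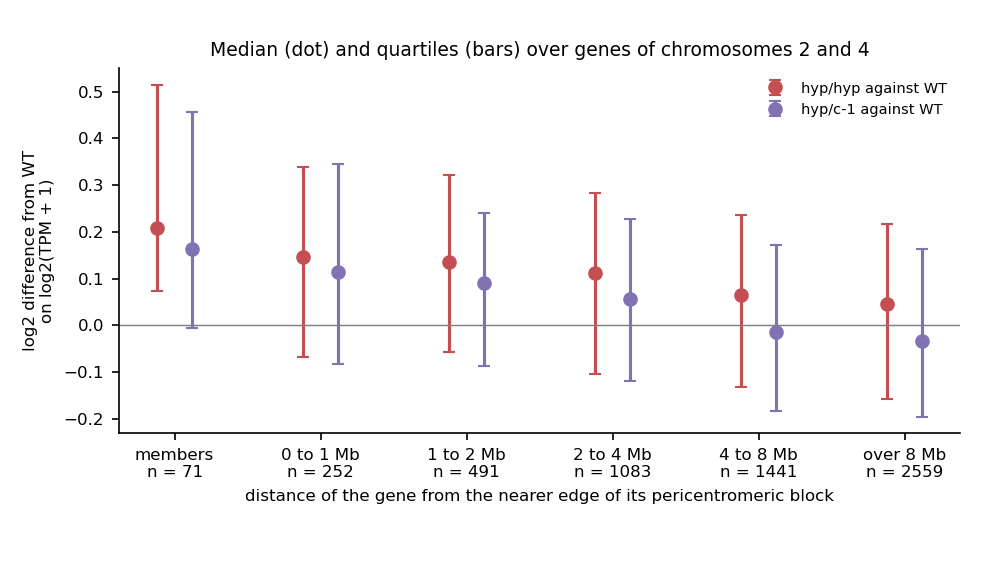
Median (dot) and quartiles (bars) of the log2 difference from WT over genes of chromosomes 2 and 4 by distance from the nearer edge of a pericentromeric block, with hyp/hyp left of hyp/c-1 in each bin. The medians step down from 0.21 and 0.16 among members to 0.05 and -0.03 beyond 8 Mb, and the quartiles of all bins overlap. The member medians include genes that entered only through mutant values. Members with 0.5 TPM in WT had 0.18 and 0.12.

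The mutants themselves differed little at these genes. In hyp/c-1 against hyp/hyp, limma called 0 of 62 tested members, against a background of 0.52% of all genes (0.226% higher, 0.294% lower), a share at which 62 genes may well give none. An unadjusted p under 0.05 was found for 11 members and for 4423 of 17668 genes under the same TPM conditions, and voom on recovered reads also called 0 members. The count of 92 genes called over the whole table became 0 without WT replicate 1, with a replicate block or in a fit of both mutants alone, and 324 without hyp/hyp replicate 1. The median log2 difference of the members was -0.06 (quartiles -0.17 and 0.14), against -0.04 for arm genes, and became 0.0016 under median-of-ratios scaling and 0.0061 under quantile normalization. AT4G05475 alone passed the adjusted p without a limit on size, with a log2 difference of 0.67 (SE 0.13, limma adjusted p = 0.0376), where the background was 2.84% of all genes (1.92% higher, 0.922% lower). AT4G05380, with 0.74, missed it (limma adjusted p = 0.0512), and the untested AT4G05540 had 1.37 ± 0.341 TPM in hyp/c-1 leaves and 0.684 ± 0.130 TPM in hyp/hyp leaves. In each of these 3 genes all hyp/c-1 libraries lay above all hyp/hyp libraries. That pattern was seen in 7 of 62 tested members (11.3%), near the 11.6% of all genes tested. The opposite pattern was seen in 3 tested members (4.84%), against 12.1% of all genes tested.

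In the opposite direction stood RAP2.9, an AP2/ERF transcription factor gene by its name. The classes above follow the product text of the annotation, which places it among the uncharacterized members. It had 35.1, 15.7 and 15.7 TPM in hyp/c-1 leaves, 37.1, 34.9 and 53.8 TPM in hyp/hyp leaves, and 24.1, 24.6 and 29.5 TPM in WT. The hyp/c-1 libraries disagreed, with replicate 1 inside the hyp/hyp range and the others under WT. Its log2 difference was -0.97 (limma adjusted p = 0.083), and -1.34 without hyp/c-1 replicate 1 (limma adjusted p = 0.0131).

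Genes that keep heterochromatin silent were taken as a list of their own. Of 16 silencing factors besides the mutated pair, among them the remodeller DDM1, the methyltransferases MET1, CMT3 and KYP and the MORC proteins, limma called none in any of the 3 comparisons, where the background was 2.87%, 3.2% and 0.52%. With so few genes, no call is what that background gives. At the adjusted p alone, which 20.8% and 20.4% of all genes passed, 1 was lower in each mutant against WT, FAS2, a subunit of the chromatin assembly factor CAF-1, with -0.45 and -0.47 (limma adjusted p = 0.0271 and 0.0231), and none was higher. ATXR6 averaged 0.0692 ± 0.0604 TPM in hyp/hyp leaves, 0.0312 ± 0.0336 TPM in hyp/c-1 leaves and 1.33 ± 0.104 TPM in WT, and ATXR5 averaged 1.83 ± 0.297, 1.64 ± 0.0885 and 4.28 ± 0.0811 TPM in the same order. Both were lower in all mutant libraries than in any WT library. Depth was 21289647 to 38766556 recovered reads per library. Markers of leaf mesophyll summed to 50496 to 57330 TPM in hyp/hyp leaves, 54051 to 68094 TPM in hyp/c-1 leaves and 63552 to 64990 TPM in WT, while root, pollen and seed lists stayed at or under 0.433 TPM in every library and the 4 flower markers between 2.11 and 4.19 TPM. Leaf markers were thus lower in hyp/hyp leaves than in WT, while the hyp/c-1 range contained that of WT, and their part in the member medians was not tested. The root list was low throughout but did not overlap WT. It summed to 0.149 to 0.403 TPM in hyp/hyp leaves, 0.181 to 0.198 TPM in hyp/c-1 leaves and 0 to 0.0591 TPM in WT.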

How the data were processed

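RNA-seq libraries of leaves from 3 genotypes, 3 each, were grouped by the genotype label. Per the submitters' processing notes, fastp 0.20.1, HISAT2 2.1.10, DESeq2 1.26.0 and the TAIR10 build were used. The counting program and strand are not given in the sources used here. The authors deposited 1 table of TPM for 27655 genes. TPM times gene span gave whole multiples of 1 unit, called a read, within 0.02 for 99.99% of 141161 values, so the authors' TPM divides by the span including introns. Names and coordinates come from RefSeq TAIR10.1, matched by locus identifier for 27445 genes.

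Values were tested as log2(TPM + 1) by limma with an eBayes trend in 1 model over 9 libraries (6 residual degrees of freedom), for 17683 genes averaging 1 TPM or more, two-sided, with Benjamini-Hochberg adjustment, and the procedure was tested on simulated data. Calls needed an adjusted p under 0.05 and a log2 difference of 1 or more in size. Members, lists and motif were chosen with earlier results of these data known. Named genes are called members, the 4 most abundant uncalled ones, the members at the bounds of the rule, and genes added after their values were seen (those passing the adjusted p alone, the untested genes and RAP2.9). Short class keywords were matched as whole words. The labels do not say that libraries come from separate plants, so p-values may measure technical spread. Replicate numbers did not pair libraries. Alternatives covered pseudocount, filter, scaling, spread model, voom on recovered reads, replicate block, member rule, call rule and leaving out each library.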

Additional observations from a re-analysis of the deposited data

How the results depend on the processing

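The median differences of the members kept their direction from WT under all alternatives. Leaving out 1 library, they ranged from 0.17 to 0.25 in hyp/hyp, from 0.09 to 0.22 in hyp/c-1, and from -0.07 to -0.0077 between the mutants. Counts of called members depended more on the settings. Against WT, hyp/hyp had 5 calls and hyp/c-1 5. These became 8 and 8 with a pseudocount of 0.1, 8 and 8 with voom on recovered reads (735 and 849 genes called over the whole table, against 507 and 566), 2 and 1 with a mean of at least 5 TPM, and 3 and 3 with the member rule applied to WT alone. Quantile normalization gave 2 in hyp/hyp, and the adjusted p alone gave 20, 17 and, between the mutants, 1. Leaving out 1 library gave 4 to 7 calls in hyp/hyp, 5 to 8 in hyp/c-1 (8 without hyp/c-1 replicate 2 or WT replicate 3) and 0 to 1 between the mutants (1 without hyp/c-1 replicate 1, RAP2.9). The cause was not tested, except that the higher minimum removes low genes by construction. Single genes were rerun for the called members, the 4 most abundant uncalled ones and the mutated pair, and 3 of them changed sign. In hyp/c-1 against WT, UBQ10 gave -0.028 under quantile normalization and -0.17 to 0.26 with 1 library left out, AT2G11215 -0.13 to 0.15 (also -0.06 without WT replicate 1), and AT2G11225 -0.21 to 0.015. Between the mutants UBQ10 gave -0.31 to 0.12. The extremes came without single hyp/c-1 libraries. Quantile normalization took AT2G10940, AT4G05475 and AT4G07940 in hyp/hyp just under the limit, at -0.999, 0.96 and 0.99.

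Same-numbered libraries correlated between -0.272 and 0.10 in their deviations from the genotype means, so the numbers were not taken to pair libraries. With a replicate block the calls were 5, 5 and 0, as without it. Genes of 0 to 4 WT reads are limited by depth: 3 reads in a gene of 2000 bp correspond to 0.0825 to 0.149 TPM.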

Other observations

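As a share of all loci, those at 0 in WT and detected in mutants were more frequent in the blocks than elsewhere on these chromosomes. Of the 180 loci, 15 (8.33%) were at 0 in all 3 WT libraries and reached 0.5 TPM in a hyp/hyp library, and 15 did so in a hyp/c-1 library, while 0 loci had the opposite pattern in either mutant. On the arms 13 of 7017 loci (0.185%) did so in hyp/hyp leaves and 11 (0.157%) in hyp/c-1 leaves, and 3 and 1 had the opposite pattern. In the flanks the counts were 15 and 14 of 1300 loci, with 2 and 1 in the opposite direction. Detection in all 6 mutant libraries with 0 reads in WT was seen at 16 of 180 loci of the blocks (8.89%), at 29 of 1300 in the flanks (2.23%) and at 14 of 7017 on the arms (0.2%). Only loci at 0 in WT can show these patterns, and the zones differ in how many loci are detected in WT. The TPM conditions of the rule, which need detection in WT, were met by 71 of 180 loci of the blocks and 5083 of 7017 on the arms. Shares among loci at 0 in WT alone were not computed. No test was made of these counts, since the loci are not replicates, and both mutants are set against the same WT libraries.

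Few of these loci gave many reads. AT2G11778, a gene of 168 bp, stood far above the rest with 586, 586 and 510 TPM in hyp/hyp leaves and 473, 422 and 416 TPM in hyp/c-1 leaves. AT2G09840, annotated as a nucleic acid and zinc ion binding protein, had 107, 68 and 72 reads in hyp/hyp leaves, 80, 58 and 31 in hyp/c-1 leaves, and 0 in each WT library. Taking 3 reads per WT library as the floor, its mean was at least 30.8-fold higher in hyp/hyp leaves and at least 16.7-fold higher in hyp/c-1 leaves. AT4G06643, on chromosome 4, had 28, 28 and 35 reads in hyp/hyp leaves, 53, 26 and 49 in hyp/c-1 leaves, and 0 in WT. AT2G11851, a gene of 4070 bp, had 24, 19 and 30 reads in hyp/hyp leaves and 39, 11 and 16 in hyp/c-1 leaves. These genes were singled out after their values were seen.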
